A study of Homo sapiens with 6 samples.

Results

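The HOX genes were followed in SH-SY5Y cells, a human neuroblastoma line, 24 h after infection with Ad CMV 3xFlag-*Esrrg* (ERRG), an adenovirus in which the CMV promoter drives the tagged mouse coding sequence, or with Ad CMV GFP (GFP) as the control. *Esrrg* encodes the orphan nuclear receptor ERRγ. Each group held 3 libraries of total RNA depleted of ribosomal RNA, numbered 1, 3 and 4 with GFP and 2, 3 and 4 with ERRG, and nothing in the labels states that they came from separate cultures, so that p-values measure the spread between these libraries, which may be technical. Both groups carry an adenovirus and a CMV promoter, and no uninfected cells were sequenced in these libraries. The members were the protein-coding genes whose symbol is HOX, a letter from A to D and a number, which gave 39 of the 67060 genes counted. Of these, 11 lie in the *HOXA* cluster (chr7:27092993-27200091), 10 in *HOXB* (chr17:48528526-48728750), 9 in *HOXC* (chr12:53938831-54056030) and 9 in *HOXD* (chr2:176092721-176190907, all GRCh38, GENCODE release 44).

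HOX genes encode homeodomain transcription factors that give cells a position along the head to tail axis. In each cluster the genes lie in the order of their paralogue number, and low numbers are used toward the head and early, high numbers toward the tail and late. The clusters are held silent by Polycomb complexes, which modify histone H3 at lysine 27, and kept active by Trithorax proteins, and retinoic acid is a classical inducer of their low-numbered genes. HOX proteins bind DNA together with cofactors of the TALE class, the PBX, MEIS and PKNOX proteins.

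Reads on genes ran from 24969759 to 29700980 with GFP and from 26513620 to 40859666 with ERRG. The share of all reads that fell outside annotated exons was 51.3% to 52.2% with GFP, 46.6% in ERRG replicate 2, 31.6% in ERRG replicate 3 and 29.5% in ERRG replicate 4, so that ERRG replicate 2 lay nearest to the control libraries. *ESRRG* levels in CPM, read counts scaled to a common library size with TMM factors, were 83.6, 90.4 and 86.9 with GFP and 570, 772 and 778 with ERRG, a log2 fold change of 3.02 ± 0.14 (SE, adjusted p = 6.3e-07, edgeR's quasi-likelihood test with Benjamini-Hochberg adjustment over all 24500 genes tested). Reads from the mouse transgene that align to human *ESRRG* and reads from the cells' own gene cannot be told apart. Of 10 markers of adrenergic neuroblastoma, the cell state usually described for SH-SY5Y, 8 were detected in every library, while *TH* and *CHGA*, which make and store catecholamines, were at 0 in every library. The reads of *CHGA* have a second place to align in an alternate contig of the genome, and those of *TH* do not, as far as the contigs searched here show. All 10 markers of mesenchymal-type neuroblastoma or stroma were detected, among them *VIM*, *COL3A1* and *FN1*, with a summed level of 8492 to 8673 CPM with GFP and 8626 to 9550 CPM with ERRG, against 702 to 765 and 523 to 692 CPM for the adrenergic markers. Each sum follows its most abundant members, and the adrenergic sum lacks *TH* and *CHGA*, so that the 2 sums do not weigh the states. With ERRG, 2 of the 10 mesenchymal markers were lower and none higher, at an adjusted p below 0.05 and at least 1.5-fold. Of 8 adrenergic markers tested, 3 were lower and 1 higher, against 16.8% and 17.3% of all tested genes. What part these markers have in the HOX levels was not tested, and in such bulk RNA fewer cells of a type and less RNA per cell cannot be told apart.

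HOX transcripts came almost entirely from the *HOXC* and *HOXD* clusters. Over the 6 libraries, 12997 reads were counted on the 39 genes, and 12994 of them fell on the 18 genes of *HOXC* and *HOXD*. The 21 genes of *HOXA* and *HOXB* had no read in any of the 3 GFP libraries and 3 reads with ERRG, 1 on *HOXA9* in replicate 3 and 1 each on *HOXA7* and *HOXB3* in replicate 4. A count of 0 allows up to 3 reads per library, which in GFP replicate 1, the shallowest control library, is 0.106 CPM, or in RPKM, the CPM divided by the exon length in kilobases, from 0.0143 for the long exons of *HOXB3* to 0.0700 for the short exons of *HOXB7*; this limit covers counting error only. No HOX gene has a second place to align in the alternate contigs, where fewer than 5% of the 31-base words of any of them were found. The same search found no second place for *TH*, also at 0 in every library, so that the search alone cannot show why a count is 0. Levels of the nearest 3 genes on either side of the silent clusters varied widely, chosen here after their values were seen. The closest genes were at or near 0 on 3 of the 4 sides, with no read on *EVX1* beside *HOXA* and levels of 0.0328 ± 0.0140 RPKM for *SKAP1* and 0.0249 ± 0.0108 RPKM for *TTLL6* beside *HOXB*, and *SKAP2* on the other side of *HOXA* was at 1.15 ± 0.0769 RPKM. Farther out, levels ran from near 0 to high. *SNX10*, between *SKAP2* and *CBX3* beside *HOXA*, was at 0.0508 ± 0.0173 RPKM. *CBX3* was at 44.3 ± 0.929 RPKM and *HIBADH* at 24.4 ± 0.657 RPKM beside *HOXA*, and *CBX1* was at 63.3 ± 1.43 RPKM beside *HOXB* (mean ± SD, n = 3 GFP libraries). The farther genes not named here lay between *SNX10* and *CBX1* in level.

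Within *HOXC* and *HOXD*, levels above 1 RPKM with GFP were found at paralogue numbers 3 to 9, and the genes toward the 5′ end of the clusters were lower. The summed level with GFP was 11.2 ± 0.917 RPKM for *HOXC* and 12.9 ± 0.359 RPKM for *HOXD* (SD, n = 3). In CPM, without division by exon length, it was 31.1 ± 2.53 for *HOXC* and 28.8 ± 1.09 for *HOXD*. Which cluster was higher thus depends on the measure, and RPKM counts exon bases shared with other genes in the length. By paralogue number over all clusters, numbers 1 to 3 summed to 1.90 ± 0.284 RPKM, all from *HOXD3*, numbers 4 to 8 to 16.6 ± 1.12 RPKM and numbers 9 to 13 to 5.58 ± 0.191 RPKM. *HOXC12*, *HOXC13* and *HOXD1* had no read in any library. *HOXC11* had 1 read in each GFP library and none with ERRG, *HOXC10* had 1 to 7 reads with GFP and 2 to 11 with ERRG, and *HOXD12* had 2 to 5 and 0 to 2. The tail-end genes of *HOXD* were thus not all at 0: *HOXD11* had 4 to 9 reads with GFP and *HOXD13*, the gene at the 5′ end of its cluster, 10 to 24.

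**Figure D1:**
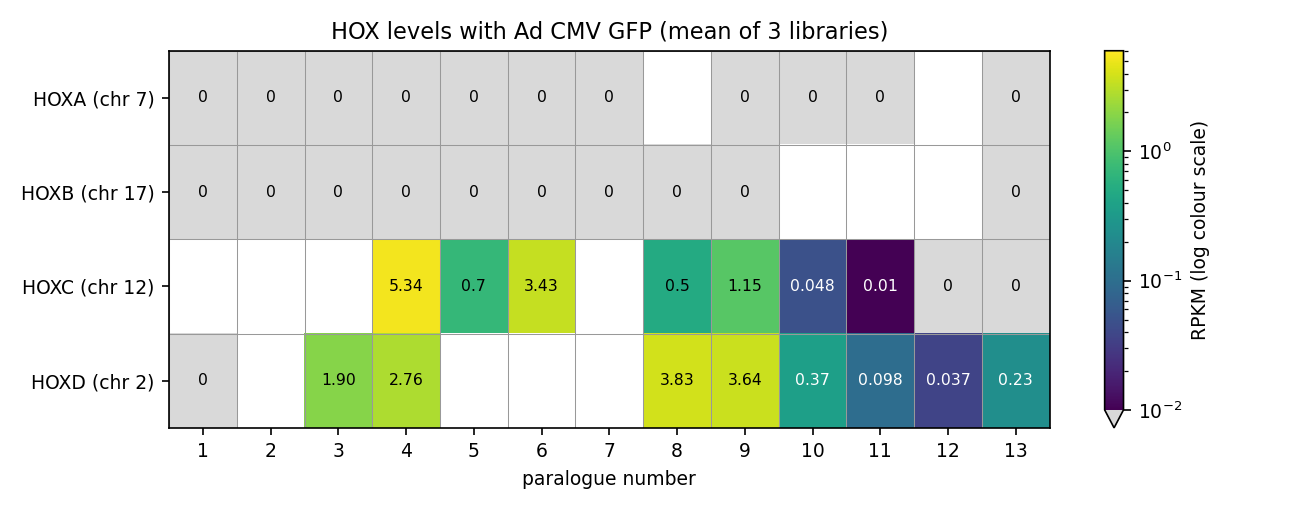
Level of each HOX gene with Ad CMV GFP, by cluster (rows) and paralogue number (columns), as the mean RPKM of 3 libraries on a log colour scale. Grey cells marked 0 had no read in any GFP library and white cells have no gene. All 21 genes of HOXA and HOXB are at 0, and the levels above 1 RPKM lie between HOXC4 and HOXC9 and between HOXD3 and HOXD9.

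To judge whether low levels stand above reads that do not come from transcription of the gene, each member was set beside 400 protein-coding olfactory receptor genes, which these cells are not thought to use. Of those, 85.8% to 89.3% were at 0 in a given library, the 95th percentile was 0.213 to 0.345 RPKM with GFP and 0.0915 to 0.148 RPKM with ERRG, and the highest gene was at 2.13 to 3.71 and 1.18 to 3.03 RPKM. *HOXC4*, *HOXD8* and *HOXD9* were above the highest olfactory receptor in every library, *HOXD9* narrowly so in GFP replicate 1, at 3.75 against 3.71 RPKM. With the 95th percentile as the limit, 10 HOX genes were above it in every library, and 8 when olfactory receptors with an alternate copy, which can lose their reads, were left out. *HOXD13*, at 0.147, 0.254 and 0.300 RPKM with GFP, was not among the 10. Compared with all 19920 protein-coding genes, whose median was 1.57 RPKM with GFP, *HOXC4* stood at percentile 69.5, *HOXD8* at 62.9 and *HOXD9* at 61.9, so that the most abundant HOX genes were at moderate levels.

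The order of the 10 genes with GFP began with *HOXC4* at 5.34 ± 0.217 RPKM, whose libraries lay above all libraries of the next gene, *HOXD8*, at 3.83 ± 0.0667 RPKM. *HOXD8*, *HOXD9* (3.64 ± 0.146 RPKM) and *HOXC6* (3.43 ± 0.417 RPKM) overlapped each with its neighbour. *HOXD4* at 2.76 ± 0.285 RPKM, *HOXD3* at 1.90 ± 0.284 RPKM and *HOXC9* at 1.15 ± 0.0875 RPKM were each separate from both neighbours in the order. *HOXC5* (0.703 ± 0.209 RPKM), *HOXC8* (0.499 ± 0.0782 RPKM) and *HOXD10* (0.374 ± 0.0731 RPKM) closed the order, and neighbours among them overlapped. Genes next to each other in paralogue number could differ widely, as *HOXC5* was below both *HOXC4* and *HOXC6* in every GFP library.

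The level of *HOXC5* depends on how its exons are read. Of its exon bases, 67.3% are shared on the same strand with the readthrough genes ENSG00000273049 and ENSG00000273046, which had no read in any library, against 17.5% for *HOXC4* and 16.1% for *HOXC6*. Reads that fit more than 1 gene are left out by the counting tool, and both readthrough genes are among the genes the authors counted. Per kilobase of unshared exon, *HOXC5* was at 2.15 RPKM with GFP and 4.06 with ERRG, against 6.48 and 9.18 for *HOXC4* and 4.09 and 5.20 for *HOXC6*. By this measure the order given above changes. With GFP, *HOXC5* was then above *HOXD3* (1.90) and *HOXC9* (1.20), and *HOXC6* was above *HOXD8* (3.83). *HOXC5* also lies inside the span of *HOXC4*, whose longest transcript begins upstream of it, and *HOXD4* lies inside that of *HOXD3*, so that unspliced RNA of the longer gene can add reads to the shorter one.

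In GENCODE release 44 the *HOXC4* model begins at chr12:54016931 and that of *HOXC5* downstream, at chr12:54033050. The first base of the *HOXC4* and *HOXC5* models in RefSeq is the same, and both genes there have 1 promoter window in common, from 250 bases before to 50 after the start. It is printed beside that of *HOXD8*, the most abundant *HOXD* gene, and that of *HOXA7*, which had 1 read in all, to show an active and a silent member of the family; CpG dinucleotides, the sites of DNA methylation, are in capitals (RefSeq, GRCh38.p14, 5′ to 3′ on the gene's strand).
*HOXC4* and *HOXC5*, chr12:54016638-54016937, plus strand: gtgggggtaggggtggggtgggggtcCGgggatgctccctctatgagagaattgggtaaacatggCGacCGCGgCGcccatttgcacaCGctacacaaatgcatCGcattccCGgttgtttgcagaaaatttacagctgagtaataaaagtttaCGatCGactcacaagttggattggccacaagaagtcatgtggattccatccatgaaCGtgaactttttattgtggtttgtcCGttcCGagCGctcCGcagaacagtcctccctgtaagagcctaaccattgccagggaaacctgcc
*HOXD8*, chr2:176129455-176129754, plus strand: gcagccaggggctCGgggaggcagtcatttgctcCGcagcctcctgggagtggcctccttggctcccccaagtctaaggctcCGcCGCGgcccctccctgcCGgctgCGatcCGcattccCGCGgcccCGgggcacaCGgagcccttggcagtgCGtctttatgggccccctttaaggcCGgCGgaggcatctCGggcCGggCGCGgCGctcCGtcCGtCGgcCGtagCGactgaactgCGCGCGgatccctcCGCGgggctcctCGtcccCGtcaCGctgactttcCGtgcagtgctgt
*HOXA7*, chr7:27156626-27156925, minus strand: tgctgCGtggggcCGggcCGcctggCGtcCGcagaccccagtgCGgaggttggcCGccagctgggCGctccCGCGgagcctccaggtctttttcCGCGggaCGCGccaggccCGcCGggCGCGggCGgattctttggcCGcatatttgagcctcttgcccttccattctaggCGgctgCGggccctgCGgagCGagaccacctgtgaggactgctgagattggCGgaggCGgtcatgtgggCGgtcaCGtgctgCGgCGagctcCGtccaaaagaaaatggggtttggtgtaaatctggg
The windows hold 15, 34 and 31 CpG dinucleotides. Windows were found for 20 of the 39 HOX genes, with 26 distinct windows, since *HOXA3* and *HOXA10* have several. The median was 22.5 CpG in the HOX windows against 14 in all 35116 windows of the table. It was 23 (4 to 34) in the 5 windows of genes above the 95th percentile of the olfactory receptors and 21.5 (0 to 44) in the 18 windows of genes with at most 3 reads, so that the ranges of read and silent HOX genes overlapped. The element bound by ERR receptors, TNAAGGTCA, was in none of the 26 windows on either strand, against 0.951% of all windows, and the half-site AGGTCA that it contains was also in none, against 13.8%. The site TGATNNAT of HOX and PBX dimers was in the windows of *HOXA2*, *HOXB1* and *HOXD11*, against 7.40% of all windows, on either strand. These are matches of letters in short windows and say nothing of binding.

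Of the 39 genes, 28 had too few reads for a test, the 21 of *HOXA* and *HOXB* with *HOXC10* to *HOXC13*, *HOXD1*, *HOXD11* and *HOXD12*. With ERRG, *HOXC5* was the 1 HOX gene called higher, at an adjusted p below 0.05 and at least 1.5-fold, among 11 HOX genes with enough reads to be tested, where 17.3% of all tested genes were called higher. No HOX gene was called lower, against 16.8% of all genes, although *HOXD10* had an unadjusted p of 0.0952. At any fold, 3 of the 11 had an adjusted p below 0.05, *HOXC4*, *HOXC5* and *HOXD8*, against 47.8% of all tested genes. Separate ranges of the GFP and ERRG libraries were found for 5 of the 11, *HOXC4*, *HOXC5*, *HOXD4*, *HOXD8* and *HOXD10*, against 58.1% of all tested genes.

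*HOXC5* was at 0.462, 0.823 and 0.825 RPKM with GFP (21, 41 and 44 reads) and at 1.07, 1.73 and 1.18 RPKM with ERRG (46, 94 and 65 reads). All ERRG libraries were above all GFP libraries, with GFP replicate 1 low and ERRG replicate 3 high. The log2 fold change was 0.91 ± 0.28 (SE, adjusted p = 0.022). The call was lost without GFP replicate 1 (0.69, adjusted p = 0.089) or without ERRG replicate 3 (0.68, adjusted p = 0.11), and was also lost after a correction for GC content and exon length (0.64, adjusted p = 0.079). It was lost too when the replicate number was added to that correction as a block, with library size only, and with the share of reads outside exons as a covariate. The call held in 10 of 16 alternative fits, with log2 fold changes down to 0.50 and adjusted p up to 0.45.

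*HOXC4* was at 5.13, 5.56 and 5.34 RPKM with GFP and at 5.72, 8.50 and 8.51 RPKM with ERRG. *HOXD8* was at 3.86, 3.75 and 3.87 RPKM with GFP and at 4.01, 5.38 and 5.46 RPKM with ERRG. For both genes ERRG replicate 2 lay just above the GFP libraries and the other two ERRG libraries well above. The log2 fold change was 0.51 ± 0.15 for *HOXC4* (adjusted p = 0.017) and 0.37 ± 0.14 for *HOXD8* (adjusted p = 0.042), in each case under 1.5-fold. The adjusted p was above 0.05 for *HOXC4* without GFP replicate 1 (0.068), GFP replicate 4 (0.055), ERRG replicate 3 (0.083) or ERRG replicate 4 (0.061), and for *HOXD8* without any library but ERRG replicate 2 (0.10 to 0.16).

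*HOXD9* was at 3.75, 3.68 and 3.47 RPKM with GFP and at 3.60, 4.92 and 5.93 RPKM with ERRG. *HOXC6* was at 2.95, 3.71 and 3.63 RPKM with GFP and at 3.56, 4.58 and 4.95 RPKM with ERRG. Here ERRG replicate 2 lay among the GFP libraries, and the groups overlapped. Neither passed the test, with log2 fold changes of 0.41 ± 0.17 (adjusted p = 0.073) for *HOXD9* and 0.35 ± 0.15 (adjusted p = 0.073) for *HOXC6*.

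*HOXD4* and *HOXD3* showed another order of libraries. *HOXD4* was at 2.44, 2.90 and 2.95 RPKM with GFP and at 4.31, 3.50 and 3.0 RPKM with ERRG. *HOXD3* was at 1.90, 2.18 and 1.61 RPKM with GFP and at 2.66, 2.04 and 2.48 RPKM with ERRG. For both genes ERRG replicate 2 was the highest library. Their log2 fold changes, 0.38 ± 0.19 (adjusted p = 0.12) and 0.34 ± 0.16 (adjusted p = 0.098), did not pass the test.

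*HOXC9* was at 1.13, 1.24 and 1.07 RPKM with GFP and at 0.674, 1.41 and 1.13 RPKM with ERRG, a log2 fold change of -0.084 ± 0.26 (adjusted p = 0.81). *HOXC8* was at 0.440, 0.468 and 0.587 RPKM with GFP and at 0.449, 0.541 and 0.631 RPKM with ERRG, a log2 fold change of 0.12 ± 0.24 (adjusted p = 0.70). For both the groups overlapped, and ERRG replicate 2 was the lowest ERRG library. Among the tested HOX genes, *HOXD10* was the 1 with every ERRG library below every GFP library, at 0.456, 0.351 and 0.316 RPKM with GFP and 0.286, 0.215 and 0.283 RPKM with ERRG. Its log2 fold change was -0.51 ± 0.28 (adjusted p = 0.15), on 18 to 32 reads per library. *HOXD13*, with 10 to 26 reads per library, had a log2 fold change of 0.088 ± 0.37 (adjusted p = 0.86), a difference smaller than its error at this depth.

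**Figure D2:**
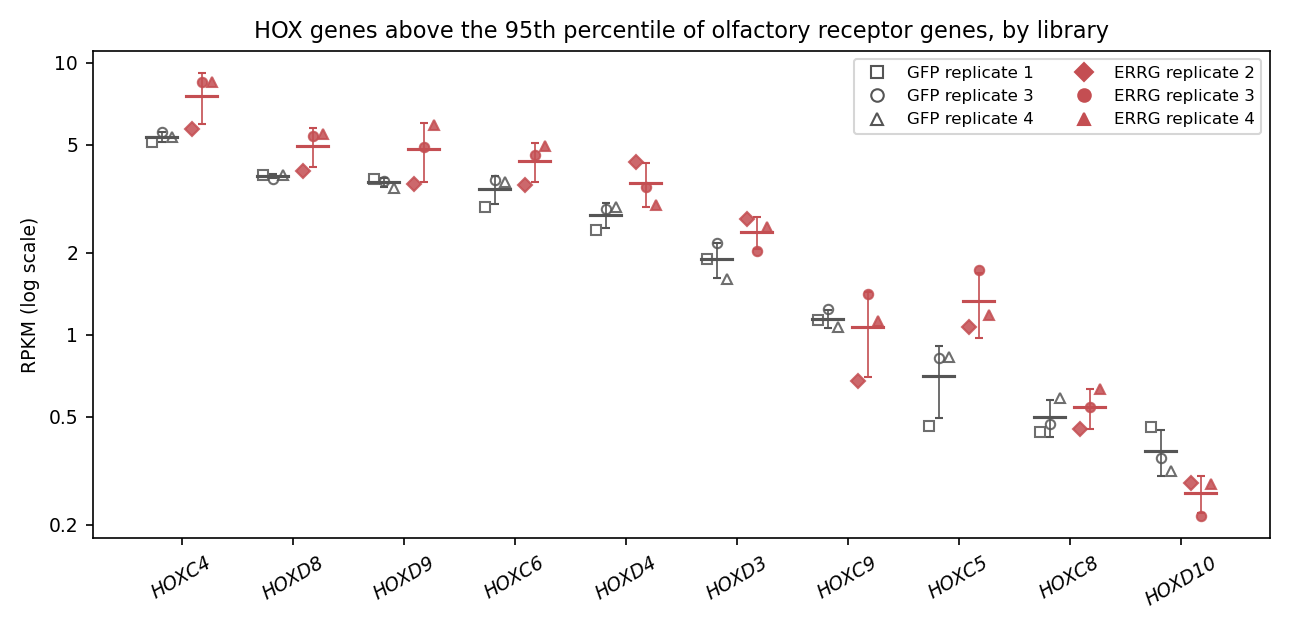
RPKM on a log axis of the 10 HOX genes above the 95th percentile of olfactory receptor genes in every library, ordered by their mean with GFP. Points are libraries (grey open symbols GFP, red filled symbols ERRG, shape by replicate number), horizontal bars are means and error bars are SD (n = 3). ERRG replicate 2 (diamonds) lies near the GFP libraries for HOXC4, HOXD8, HOXD9 and HOXC6 and is the highest library for HOXD4 and HOXD3.

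For *HOXC4*, *HOXC6*, *HOXC8*, *HOXD8*, *HOXD9* and *HOXD13* the ERRG libraries rose in the order in which their shares of reads outside exons fell. For all of these but *HOXC8* and *HOXD13*, replicate 2 was the ERRG library nearest to the mean of the controls. For *HOXC4* the last step was very small, from 8.50 to 8.51 RPKM. *ESRRG* rose in the same order (570, 772 and 778 CPM), so that its level and the share of reads outside exons cannot be told apart here. Without ERRG replicate 2, *HOXC4* (0.78), *HOXC5* (1.14), *HOXD8* (0.61) and *HOXD9* (0.69, log2 fold changes) were called higher. With the share of reads outside exons as a covariate, *HOXD4* was the 1 HOX gene called (0.77, adjusted p = 0.022), and *HOXC4* (-0.080), *HOXC6* (-0.11), *HOXC8* (-0.31), *HOXD8* (-0.063), *HOXD9* (-0.22), *HOXD13* (-0.96), *HOXC9* (-0.99, adjusted p = 0.076) and *HOXD10* (-0.33) had log2 fold changes below 0 that did not pass the test. The share was 51.3% to 52.2% in the GFP libraries and 29.5% to 46.6% in the ERRG libraries, so that the covariate differs with the group. Its slope rests mostly on the ERRG libraries, and the fit cannot part it cleanly from the group. The part of the share of reads outside exons in these differences was not tested beyond this fit.

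Of the 11 tested HOX genes, 9 had a log2 fold change above 0, with a median of 0.35 against -0.10 over all tested genes, but the median was 0.025 when libraries were scaled by their size alone, with 7 above 0, and -0.11 with the covariate, with 3 above 0. Scaling by size alone also moved the median of all genes, from -0.10 to -0.42, and relative to that median the HOX median was 0.45 under both scalings. It was 0.22 relative to the genes tested when only protein-coding genes were fitted and 0.027 after the correction for GC content and exon length. Summed over the 39 genes, the level was 24.0 ± 1.17 RPKM with GFP and 26.7, 33.3 and 34.2 RPKM in the ERRG libraries. In RPKM, *HOXC* held from 44.4% to 47.8% of the sum with GFP and from 43.1% to 50.6% with ERRG, and nearly all the rest was *HOXD*. These parts rest on the length of all exons, shared bases included. *HOXA* and *HOXB* had 0 to 2 reads per library with ERRG, under the 3 reads that a count of 0 allows.

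**Figure D3:**
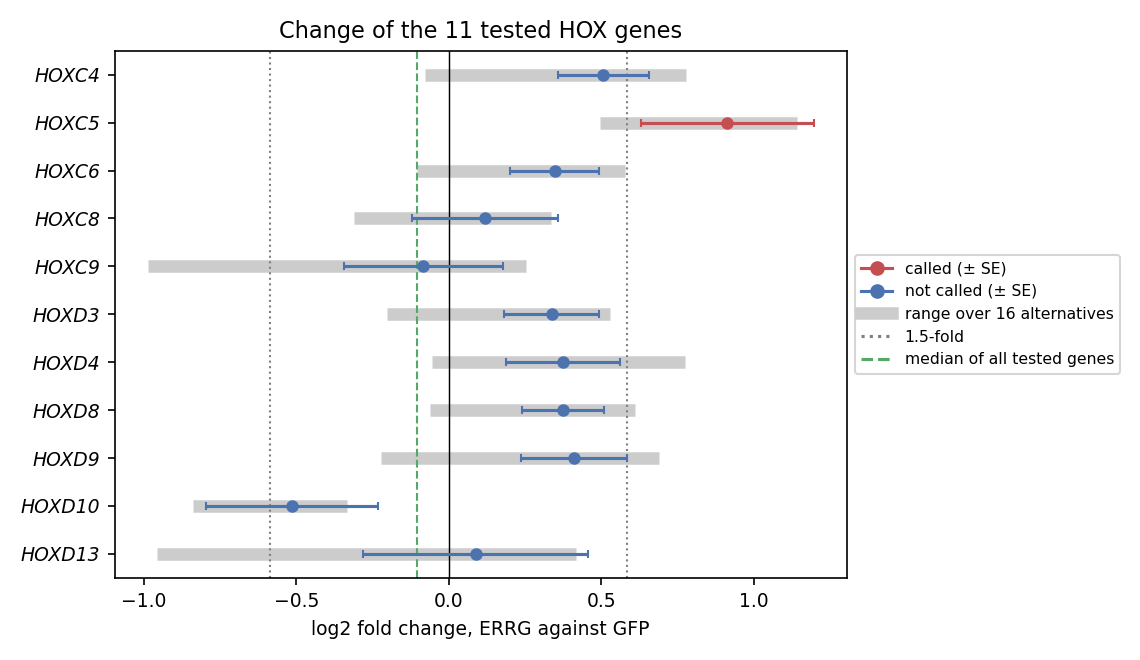
Log2 fold change of each tested HOX gene, ERRG against GFP (points, ± SE; red called, blue not called). Grey bars span the 16 alternative fits, dotted lines mark 1.5-fold and the dashed line is the median of all tested genes. The bar of HOXC5 stays above 0 and that of HOXD10 below 0, and the bars of the other 9 genes cross 0.

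Of the 57 non-coding genes inside the clusters, 42 had no read, and 5 were tested, of which 1 was called higher and 1 lower, against 17.3% and 16.8% of all tested genes. *HOXD-AS2*, which overlaps *HOXD8* and *HOXD3*, rose from 1.28 ± 0.106 to 2.34 ± 0.464 RPKM (log2 fold change 0.88 ± 0.19, adjusted p = 0.0036). Its call held in 11 of 15 alternative fits, and the log2 fold change went down to 0.34 (adjusted p = 0.41) with the covariate. ENSG00000260597 of the *HOXC* cluster fell from 1.06 ± 0.0329 to 0.560 ± 0.0611 RPKM (-0.91 ± 0.19, adjusted p = 0.0025). *HAGLR*, on the other strand of *HOXD1*, 60.1% of whose exon bases are shared with other genes, was at 2.09 ± 0.0882 and 1.68 ± 0.184 RPKM (-0.31, adjusted p = 0.059), beside a *HOXD1* count of 0. *HOTAIR*, a long non-coding RNA of the *HOXC* cluster known for its link to Polycomb, had 1 read in all. The libraries keep strand, but the strand setting of the counting is not given in the sources used here, so reads of a gene and its antisense partner may not have been separated.

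The clusters also hold miRNA genes, short RNAs that pair with target mRNAs through a seed at bases 2 to 8, several of which are known to repress HOX mRNAs. Mature sequences are printed with the seed in capitals for the miR-196 and miR-10 families, which have a member in a silent and in an active cluster, without the 3p arms of miR-196 and without miR-10b-5p (RefSeq, GRCh38.p14).
hsa-miR-196a-5p: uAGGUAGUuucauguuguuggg
hsa-miR-196b-5p: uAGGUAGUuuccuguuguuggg
hsa-miR-10a-5p: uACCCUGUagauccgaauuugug
hsa-miR-10a-3p: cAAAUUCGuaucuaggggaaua
hsa-miR-10b-3p: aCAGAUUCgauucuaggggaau
Both miR-196 sequences share the seed AGGUAGU, and the 3p arms of miR-10a and miR-10b have different seeds. Their genes, *MIR196A1* in *HOXB*, *MIR196A2* in *HOXC* and *MIR196B* in *HOXA*, had no read in any library, also the 1 in the active *HOXC* cluster. *MIR10A* of *HOXB* had no read, whereas *MIR10B*, between *HOXD8* and *HOXD4* and inside the span of *HOXD3*, had 128 reads in all and a log2 fold change of 0.51 (adjusted p = 0.18). These reads were counted on the hairpin gene in long-RNA libraries and do not measure the mature miRNA.

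Of the TALE cofactors, 8 of 9 were tested, 1 was called lower and none higher, against 17.3% higher and 16.8% lower of all tested genes. *MEIS2* fell from 40.3 ± 1.13 to 23.8 ± 2.32 RPKM (log2 fold change -0.76 ± 0.11, adjusted p = 0.00030), a call that held in 13 of 16 alternative fits. *MEIS1* (-0.48), *PBX3* (-0.37) and *PKNOX1* (-0.35) also had adjusted p-values below 0.05, at under 1.5-fold, and the median of the list was -0.36. With GFP the mean levels of *MEIS2*, *PBX3* (25.8 RPKM), *MEIS3* (14.6 RPKM) and *MEIS1* (12.2 RPKM) were above that of *HOXC4*, the most abundant HOX gene, and *PBX2* was at 0 where its reads have a second place to align. In the related ParaHox, EVX, GBX and MNX families, 5 of 11 genes had no read, among them *PDX1* and *CDX2*, and *GBX2* was the 1 gene tested, with no change called (-0.20, adjusted p = 0.58).

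Among 27 Polycomb genes, 24 were tested, 4 were called higher and 1 lower, against 17.3% higher and 16.8% lower of all tested genes, with a median log2 fold change of 0.018. The untested *RING1*, *PCGF2* and *PHF1*, with 0, 5 and 28 reads in all, have a second place to align in an alternate contig. *PCGF1* rose from 7.47 ± 0.377 to 14.9 ± 3.91 RPKM (0.99 ± 0.18, adjusted p = 0.0011). *CBX6* (0.95) and *CBX8* (0.68), chromodomain proteins that read the Polycomb mark, were higher, and *PHC3* (-0.62), a subunit of PRC1, was lower. The call held in 10 of 16 alternative fits for *CBX8*, whose log2 fold change went down to 0.033 (adjusted p = 0.89) with the covariate, in 8 of 16 for *PHC3*, and in 15 of 16 for *PCGF1*, at 0.24 (adjusted p = 0.22) with the covariate. It was lost for *CBX8* without ERRG replicate 4 (0.54), and for *PHC3* without GFP replicate 1 (-0.58), ERRG replicate 3 (-0.58) or ERRG replicate 4 (-0.52). Of the catalytic and core subunits of PRC2, *EZH2* (-0.34, adjusted p = 0.0092), *EZH1* (-0.25, adjusted p = 0.036) and *SUZ12* (-0.31, adjusted p = 0.026) were lower at under 1.5-fold. *RBBP7* went the other way, at 0.41 (adjusted p = 0.015), also under 1.5-fold. *EED* had a log2 fold change of 0.15 (adjusted p = 0.20) and *RBBP4* of 0.034 (adjusted p = 0.80). Of the 11 Trithorax and H3K27 demethylation genes, all tested, *MEN1* (0.81 ± 0.11, adjusted p = 0.00030) and *WDR5* (0.63 ± 0.11, adjusted p = 0.00097) were higher and none lower, against 17.3% and 16.8% of all tested genes, and the methyltransferase *KMT2A* (-0.46) and the demethylase *KDM6A* (-0.49) were lower at under 1.5-fold with adjusted p-values of 0.0027 and 0.0032. *KMT2B*, a paralogue of *KMT2A*, went the other way, at 0.48 (adjusted p = 0.0025). Calls held in 12 of 16 alternative fits for *MEN1*, down to 0.41, and in 10 of 16 for *WDR5*, down to 0.29 and lost among others without ERRG replicate 4 (0.58).

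Of 17 retinoic acid genes, 10 were tested, 3 called higher and 3 lower, against 17.3% higher and 16.8% lower of all tested genes. The binding proteins *CRABP1*, from 5.53 ± 0.426 to 22.5 ± 6.98 RPKM (2.03 ± 0.21, adjusted p = 6.9e-05), and *CRABP2* (1.5) rose with the receptor *RARA* (0.86). *ALDH1A3*, which makes retinoic acid, fell from 3.30 ± 0.255 to 0.910 ± 0.126 RPKM (-1.86 ± 0.14, adjusted p = 9.3e-06), and the retinal reductase *DHRS3* (-0.92) and the receptor *RXRA* (-0.90) were also lower. *CYP26A1*, which breaks retinoic acid down and is induced by it, was at 0 in all libraries.

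Of the 24 protein-coding genes flanking the clusters, 20 were tested, 5 were called higher and 1 lower, against 17.3% higher and 16.8% lower of all tested genes. *ATP5MC1* beside *HOXB* (2.19), *ATP5MC3* beside *HOXD* (2.17) and *ATP5MC2* beside *HOXC* (1.11), paralogous genes for the ring subunit of the mitochondrial ATP synthase, were higher, with *SNX11* (0.73) beside *HOXB* and *SMUG1* (0.73), named after its value was seen, beside *HOXC*. *SKAP2* beside *HOXA* was lower (-0.99). *ATP5MC1* went from 10.8 ± 0.906 to 49.0 ± 12.9 RPKM with adjusted p = 1.9e-05, while the 10 *HOXB* genes had 1 read in all.

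**Figure D4:**
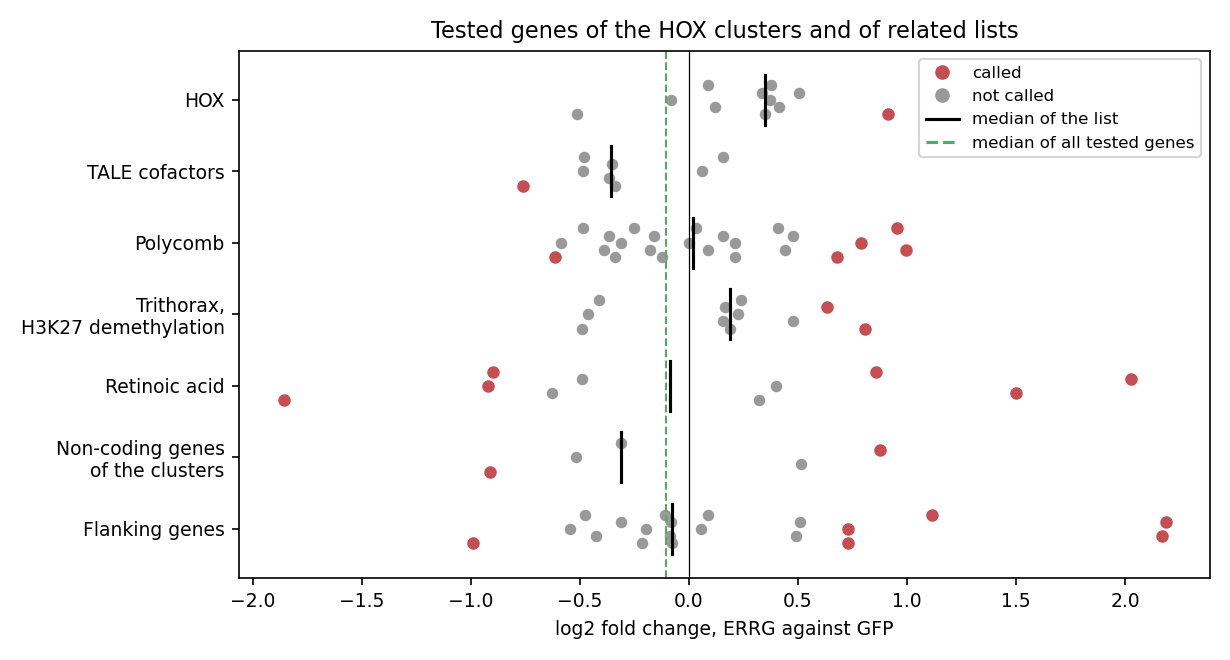
Log2 fold change, ERRG against GFP, of each tested gene of the HOX clusters and of the related lists (points; red called at adjusted p below 0.05 and at least 1.5-fold, grey not called). Black bars are list medians and the dashed line is the median of all tested genes. The HOX genes lie within -0.51 and 0.91, whereas the retinoic acid list spans -1.86 to 2.03 and the flanking genes reach 2.19.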

How the data were processed

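RNA sequencing of 6 SH-SY5Y libraries was analysed. The authors deposited raw counts per Ensembl gene, and per the labels reads were trimmed with Trim Galore 0.6.7, aligned with STAR 2.7.9a to GRCh38 and counted with HTSeq 0.11.3, which drops reads that fit several genes or places. The annotation release and strand setting are not given in the sources used here. Of 67060 genes, 60419 (90.1%) matched GENCODE release 44 by identifier, and 5 summary entries were left out of the library sizes.

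Counts were compared in R 4.3.3 with edgeR 4.0.16 (filterByExpr, TMM, quasi-likelihood test, all 6 libraries, no covariates). A gene was called at 1.5-fold or more with a Benjamini-Hochberg adjusted p under 0.05 over 24500 genes. SE was obtained from the log2 fold change and the F statistic. RPKM divides TMM-scaled CPM by the length of all exons. Members, lists, markers and tests were chosen with earlier results of these data known. Named genes are all HOX genes, *ESRRG* and, from each other list, at most 4 called genes per direction with the largest change; other genes named were chosen after their values were seen. A few list members are not reported here. For alternate copies, the 31-base words of transcripts were searched in 261 alternate contigs, with a copy called at 80%. Alternatives were DESeq2 1.42.0 and those given under the closing section, with a GC and length correction by mgcv 1.9.3. The fits were tested on simulated data of 24142 genes, where edgeR recovered 62 of 100 genes changed 2-fold and 94 of 100 changed 4-fold with 14 false calls. Tables and plots were made with Python 3.11.15, pandas 2.3.3, numpy 2.4.6 and matplotlib 3.10.9.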

Additional observations from a re-analysis of the deposited data

How the results depend on the processing

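The 1 HOX gene called higher became 2 with RLE size factors or with DESeq2, both *HOXC4* and *HOXC5*, 0 with library size only, 3 with the replicate number as a block, 0 with the correction for GC content and exon length, 0 with both together, 3 with no fold cutoff and 0 with a 2-fold cutoff. Leaving out each library gave 0 to 4. The 0 called lower became 1, *HOXD10*, with library size only. Over all genes, 8351 were changed, against 5282 with protein-coding genes only, which tests fewer genes, 3096 with the covariate and 3934 at 2-fold. Of the calls 50.7% were higher, and 22.5% with library size only. HOX genes above the silent level were 3, 10 at the 95th percentile of olfactory receptors and 8 at that of those without an alternate copy, a limit added after the data were seen.

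The direction turned with the covariate for *HOXC4* (-0.080), *HOXC6* (-0.11), *HOXC8* (-0.31), *HOXD8* (-0.063), *HOXD9* (-0.22) and *HOXD13* (-0.96). It turned with library size only for *HOXC8* (-0.22) and *HOXD13* (-0.25), and with protein-coding genes only for *HOXC8* (-0.021) and *HOXD13* (-0.052). With RLE size factors *HOXC9* was at 0.0018, and with the replicate block at 0.13. With the GC and length correction *HOXD3* was at -0.046 and *HOXD13* at -0.11, and with the block added *HOXD3* was at -0.20, *HOXD4* at -0.054 and *HOXD13* at -0.13. Leaving out each library gave -0.32 to 0.25 for *HOXC9* and -0.15 to 0.42 for *HOXD13*. The cause was not tested. Replicate numbers 3 and 4 occur in both groups, and the deviations of same-numbered libraries correlated at 0.075 and -0.00010. With so few libraries per group, and with a library in each group that has no same-numbered partner, these correlations cannot decide whether same-numbered libraries were handled together. Depth limits *HOXD10*, *HOXD13* and the untested genes most.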
